A study of Mus musculus with 40 samples.

Results

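The genes described here are 10 G protein-coupled receptors chosen by symbol as receptors of astrocytes: S1pr1, Ednrb, Ntsr2, Gpr37l1, Gprc5b, Adra1a, Adrb1, P2ry1, Adora1 and Adora2b. The choice was made with earlier results of these data known. All 10 were found among the 26792 gene symbols of the count table, and all 10 passed the filter on low counts in the pull-downs, in the supernatants and in the joint table of 15629 genes. The libraries came from microdissected hypothalami of mice carrying the Aldh1l1-eGFP-L10a transgene, which places a tagged ribosomal protein in cells that use the Aldh1l1 promoter, mostly astrocytes. The tagged ribosomes were pulled down with their bound messages (the pull-down, labelled IP), and the material left behind gave the supernatant (SN). Every mouse in the study carried the transgene. The groups were sham-operated mice on chow (7 sample numbers), sham-operated mice on a high-fat diet (HFD, 6) and orchiectomised mice, whose testes were removed, on HFD (ORX, 7). Each was fed for 4 weeks and each number gave 1 library of either fraction, 40 in all. Orchiectomised mice on chow were not analysed here, and orchiectomy was compared within HFD. The labels give no age, and they do not say whether each number is a mouse of its own, so the tests measure only the spread between these numbered samples.

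G protein-coupled receptors pass a signal from outside the cell to G proteins on its inner face. Receptors coupled to Gq release calcium from internal stores through phospholipase C and inositol trisphosphate, those coupled to Gs raise cyclic AMP, and those coupled to Gi lower it. Astrocytes fire no action potentials and respond to transmitters, nucleotides and peptides largely through such receptors, with calcium rises as the most studied readout. In the hypothalamus astrocytes line vessels and surround neurons that control feeding and reproduction.

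Pull-down libraries held 7714834 to 20792175 counts each, and supernatant libraries 8739276 to 12931869. Levels are given in CPM, counts relative to the scaled library total, on a scale common to all libraries. Reads come from the 3' ends of messages, so that levels of different genes can be set side by side with little effect of length. The astrocyte markers Aldh1l1 and Gfap were 4.89 ± 0.24 and 4.78 ± 0.15 higher in the pull-downs (log2 fold change ± SE), and all 14 markers of an astrocyte list rose. All 12 neuron, 10 oligodendrocyte and 10 microglia markers were lower in the pull-downs, while all 10 endothelial markers were higher, with a summed level of 298 to 1892 CPM in pull-down libraries against 106 to 177 CPM in supernatants. Of 10 mural markers 7 were higher and 1 lower (median 1.07), with sums of 120 to 452 CPM against 63.3 to 95.5 CPM. Of 6 oligodendrocyte precursor markers 1 was higher and 5 lower. Of 10 tanycyte and ependymal markers 4 were higher and 4 lower. Gm42418, which overlaps a ribosomal RNA repeat, took over 10% of the counts in 4 pull-downs, sample numbers 1, 8, 11 and 22. In bulk libraries, fewer cells of a type and less RNA per cell cannot be told apart.

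Of the 10 receptors, 9 were called higher in the pull-downs at an adjusted p under 0.05 (edgeR's quasi-likelihood test, Benjamini-Hochberg adjustment over 15629 genes). This count has to be read against a background in which 43.1% of all genes were called higher and 86.8% were called in either direction. Size separated the receptors more than the call did. In 7 receptors the lowest pull-down lay above the highest supernatant, as in 18.3% of all genes, and the other 3, Adra1a, Adrb1 and P2ry1, overlapped. A rise of at least 16-fold was seen in S1pr1, Ednrb, Ntsr2, Gpr37l1 and Adora2b, against 1.42% of all genes. The name "astrocyte-enriched" therefore describes 7 of the 10 in these libraries, and Adra1a and Adrb1 only weakly, while P2ry1 was called higher under no setting tried. Since the receptors were chosen with earlier results of these data known, an excess over the shares of all genes is a description only.

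**Figure D1:**
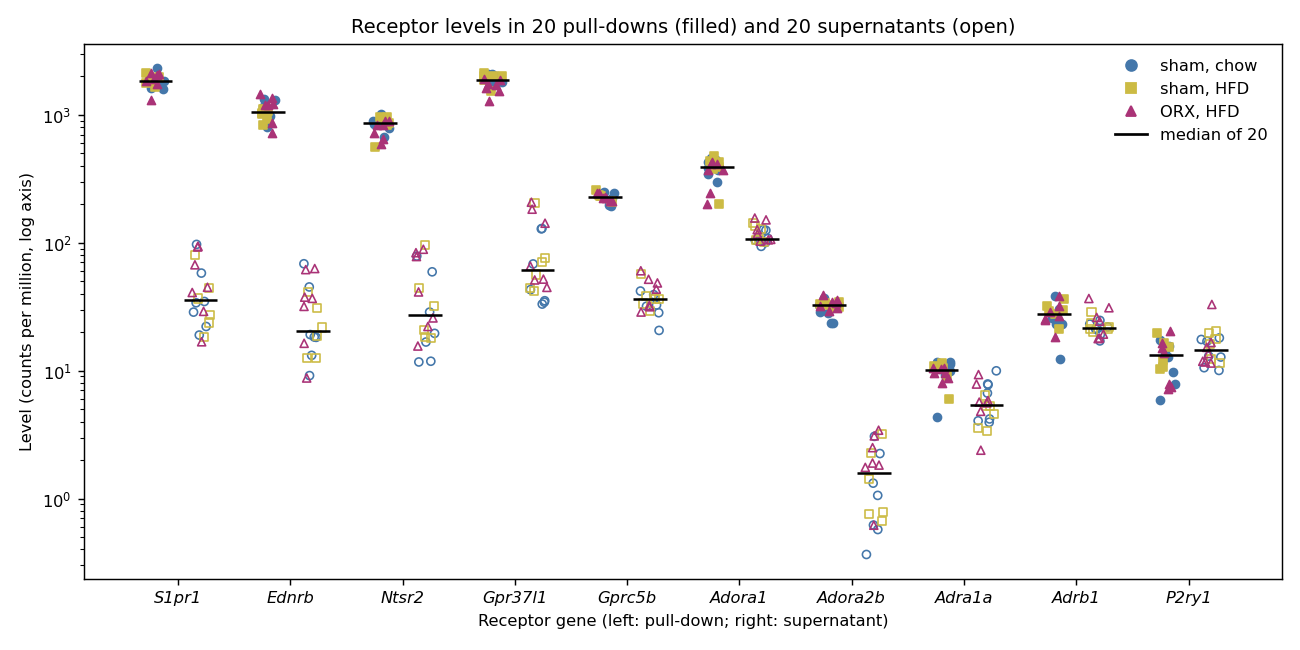
Level of each receptor (CPM, log axis) in 20 pull-downs (filled, left) and 20 supernatants (open, right), with colour and shape giving the treatment group and bars the median of 20. The fractions are apart for the 7 receptors on the left and overlap for Adra1a, Adrb1 and P2ry1.

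Promoter sequences are shown for 2 receptors with few and 2 with many CpG dinucleotides, since the receptors that moved together between the fractions did not share this feature. RefSeq's table for GRCm38.p6 held a promoter, 250 bases before to 50 after the start, for 8 of the 10 genes. For P2ry1, Ednrb, Adrb1 and the Adora1 window with 26 CpGs, the first bases after the start occurred in none of the gene's GENCODE M21 transcripts. Their CpG and motif counts describe the listed windows only. The windows are printed on the gene's own strand, with CpG dinucleotides in capitals.
Ntsr2, chr12:16653220-16653519, plus strand: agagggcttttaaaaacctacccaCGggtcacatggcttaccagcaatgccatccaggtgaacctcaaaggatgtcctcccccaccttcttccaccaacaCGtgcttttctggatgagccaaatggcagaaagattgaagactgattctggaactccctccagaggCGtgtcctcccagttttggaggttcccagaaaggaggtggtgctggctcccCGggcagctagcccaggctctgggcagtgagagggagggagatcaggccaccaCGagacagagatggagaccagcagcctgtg
Gpr37l1, chr1:135167632-135167931, minus strand: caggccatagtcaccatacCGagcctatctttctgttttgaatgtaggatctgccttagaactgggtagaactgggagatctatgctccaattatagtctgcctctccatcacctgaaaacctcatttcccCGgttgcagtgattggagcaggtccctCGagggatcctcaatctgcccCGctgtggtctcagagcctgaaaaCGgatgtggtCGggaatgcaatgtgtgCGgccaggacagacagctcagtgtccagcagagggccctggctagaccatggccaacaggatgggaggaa
Adora2b, chr11:62248734-62249033, plus strand: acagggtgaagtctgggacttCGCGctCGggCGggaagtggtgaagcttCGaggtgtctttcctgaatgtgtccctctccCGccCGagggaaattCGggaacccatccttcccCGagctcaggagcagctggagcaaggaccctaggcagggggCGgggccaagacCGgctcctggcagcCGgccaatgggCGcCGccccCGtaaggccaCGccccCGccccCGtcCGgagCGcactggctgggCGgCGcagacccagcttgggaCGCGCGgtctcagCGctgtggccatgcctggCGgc
P2ry1, chr3:61002535-61002834, plus strand: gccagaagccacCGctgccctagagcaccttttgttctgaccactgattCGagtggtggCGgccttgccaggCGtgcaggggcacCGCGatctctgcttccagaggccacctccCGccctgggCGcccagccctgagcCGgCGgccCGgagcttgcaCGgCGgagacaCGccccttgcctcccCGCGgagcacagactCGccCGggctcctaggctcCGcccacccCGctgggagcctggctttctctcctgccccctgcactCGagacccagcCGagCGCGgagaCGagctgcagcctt

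The Ntsr2 window held 5 CpGs and that of Gpr37l1 held 7, against a median of 7 over 32851 promoters of the same length. The windows of Adora2b and P2ry1 held 27 and 25, and those of Gprc5b and Adrb1 held 23 and 28. Ednrb lay between with 15, and the 2 windows listed for Adora1 held 24 and 26. Adora2b and P2ry1 thus had similar windows by this count although their levels differed between the fractions by 4.27 and -0.27 on the log2 scale. On either strand, the SOX motif ACAATGG was found once, in Adrb1, and it occurs in 3.66% of all promoters. The NFI half-site TTGGCA (14.1% of all promoters) and the STAT motif TTCCNGGAA (1.15%) were found in no window of the 8 genes. No overlap between motifs arose, and a match or its absence in such a window is a description only.

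S1pr1, on chr3:115710433-115715072 in GRCm38, encodes a Gi-coupled receptor for the lipid sphingosine 1-phosphate. It had 1308, 1833 and 2305 CPM (lowest, median and highest of 20) in the pull-downs and 16.8, 35.7 and 96.9 CPM in the supernatants. The fractions were far apart, and the log2 difference was 5.38 ± 0.22 (adjusted p = 4.46e-24), larger than in 99.9% of genes. S1pr1 is also well known from endothelial cells, whose markers were higher in the pull-downs too. The pull-down of sample number 22 (ORX, HFD) had the highest endothelial marker sum, 1892 CPM, and the lowest S1pr1. The next 4 sums, 919 to 1515 CPM in numbers 6, 11, 1 and 8, came with S1pr1 at 1837 to 2089 CPM, above its median. The part of endothelial RNA in the S1pr1 level was not tested.

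Ednrb, on chr14:103814625-103844402, encodes the endothelin B receptor, which answers endothelins through Gq and Gi. It had 722, 1055 and 1456 CPM in the pull-downs against 8.75, 20.4 and 68.4 CPM in the supernatants. No library of either fraction reached the other's range, and the log2 difference was 5.24 ± 0.24 (adjusted p = 3.68e-22).

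Ntsr2, on chr12:16653382-16660227, encodes a low-affinity neurotensin receptor of astrocytes. Its levels were 561, 857 and 1005 CPM in the pull-downs and, in the supernatants, 11.7, 27.2 and 95.9 CPM. The log2 difference was 4.38 ± 0.26 (adjusted p = 1.53e-18). Its lowest pull-down and its highest supernatant both came from sample number 1 (sham, HFD).

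Gpr37l1, on chr1:135160234-135167681, encodes a receptor whose ligand is debated. With S1pr1 it was the most abundant of the 10 in the pull-downs, at 1276, 1858 and 2135 CPM, and it had 33.1, 60.9 and 207 CPM in the supernatants. The log2 difference was 4.45 ± 0.23 (adjusted p = 1.88e-20). Gprc5b, an orphan receptor of class C on chr7:118972047-118995211, was less abundant and varied least of the 10 in the pull-downs, with 194, 226 and 260 CPM in the pull-downs and, in the supernatants, 20.6, 36.3 and 60.3 CPM. It differed by 2.58 ± 0.09 (adjusted p = 1.49e-27). The gene Iqck overlaps Gprc5b on the other strand, at a mean of 10.1 CPM in the pull-downs and 4.08 in the supernatants, and no source used here says whether counting used the strand.

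The 2 adenosine receptors stood far apart. Adora1, on chr1:134199223-134235431, encodes the Gi-coupled adenosine receptor found on neurons as well as astrocytes. It had 202, 388 and 475 CPM in the pull-downs and, in the supernatants, 93.6, 108 and 156 CPM, which made it the most abundant receptor of the 10 in the supernatant. Its log2 difference was 1.67 ± 0.09 (adjusted p = 2.74e-20). Adora2b, on chr11:62248984-62266453, encodes a Gs-coupled receptor of low affinity for adenosine. It had only 23.5, 32.3 and 38.8 CPM in the pull-downs, and 0.366, 1.58 and 3.42 CPM in the supernatants, where 4 to 38 counts lie behind a value. The log2 difference was 4.27 ± 0.17 (adjusted p = 3.43e-25), so that the scarcer of the pair was the more unevenly shared between the fractions. Mybph overlaps Adora1 on the other strand, with at most 4 counts in a library.

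Adra1a, on chr14:66635251-66771168, encodes a Gq-coupled noradrenaline receptor. It had 4.36, 10.2 and 11.8 CPM in the pull-downs and, in the supernatants, 2.39, 5.43 and 9.96 CPM. The ranges overlapped, and the log2 difference of 0.79 ± 0.13 passed the test (adjusted p = 6.56e-07). Within sample numbers the pull-down was higher in 18 of 20, the exceptions being number 12 (sham, chow) and number 10 (ORX, HFD).

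Adrb1, on chr19:56722199-56733113, encodes a Gs-coupled noradrenaline receptor. Its 12.4, 27.5 and 38.4 CPM in the pull-downs stood against 17.1, 21.5 and 36.6 CPM in the supernatants, with wide overlap. The log2 difference was 0.27 ± 0.10 (adjusted p = 0.012), and the pull-down was higher in 17 of 20 numbers. This call was lost with DESeq2 (0.20 ± 0.10, adjusted p = 0.0572), which scales the libraries so that the median gene lies at -0.08. It was also lost with DESeq2's scaling in edgeR (adjusted p = 0.0574), with total counts (0.0671) and with limma on the second deposited table (0.138).

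P2ry1, on chr3:61002795-61008982, encodes a Gq-coupled receptor for ADP that is used widely in studies of astrocyte calcium. It had 5.93, 13.3 and 20.5 CPM in the pull-downs and, in the supernatants, 10.0, 14.4 and 32.9 CPM. The log2 difference of -0.27 ± 0.15 did not pass the test (adjusted p = 0.0873), where 43.7% of all genes were called lower, with an interval of 2 SE from -0.56 to 0.03, although the pull-down was the lower in 17 of 20 numbers. With the sample number as a block the difference was -0.29 ± 0.11 and passed (adjusted p = 0.0191). It also passed with DESeq2 (-0.34 ± 0.15, adjusted p = 0.0254), with DESeq2's scaling in edgeR (0.0317), with total counts (0.0408) and with limma on the second table (0.0133). The Adrb1 call was lost under these same settings, so these passes are not separate observations. The median gene lay at -0.08 with DESeq2 against -0.01 in the main fit, and S1pr1 moved from 5.38 to 5.31. P2ry1 also passed in edgeR without sample number 14 (0.0298) or 18 (0.039). These numbers had the highest P2ry1 ratios of pull-down to supernatant, 0.84 and 0.78 on the log2 scale. Leaving out either therefore has to lower the difference. The antisense gene Gm37035, which overlaps P2ry1, had at most 3 counts in a library.

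In the order of levels in the pull-downs, S1pr1 (1858 ± 227 CPM, SD, n = 20) and Gpr37l1 (1832 ± 220) did not differ beyond their spread, each being the higher in 10 of 20 libraries. Ednrb (1080.0 ± 197) and Ntsr2 (828 ± 127) followed, with Ednrb above Ntsr2 in 18 of 20. Adora1 (373 ± 79.1) and Gprc5b (226 ± 17.9) came next, then Adora2b (31.8 ± 3.86) and Adrb1 (27.5 ± 6.37), which differed by less than 1 SD. P2ry1 (12.8 ± 4.33) and Adra1a (9.68 ± 1.85) were the lowest and also differed by less than 1 SD. S1pr1 and Gpr37l1 together carried most of the summed receptor level, with 29.7% and 29.2% each.

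The order in the supernatants was another. Adora1 led with 117 ± 17.9 CPM and 31.5% of the summed level, before Gpr37l1 (85.5 ± 58.3), S1pr1 (45.4 ± 26.7), Ntsr2 (40.5 ± 28.9), Gprc5b (37.9 ± 10.0), Ednrb (29.2 ± 18.6), Adrb1 (22.9 ± 4.81), P2ry1 (15.5 ± 5.15), Adra1a (5.71 ± 2.02) and Adora2b (1.67 ± 1.00). From Adora1 down to Adrb1 each neighbouring pair differed by less than the larger SD of the pair, although within libraries Gpr37l1 was above S1pr1 in 20 of 20. Adora2b, seventh in the pull-downs, was the last here.

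**Figure D2:**
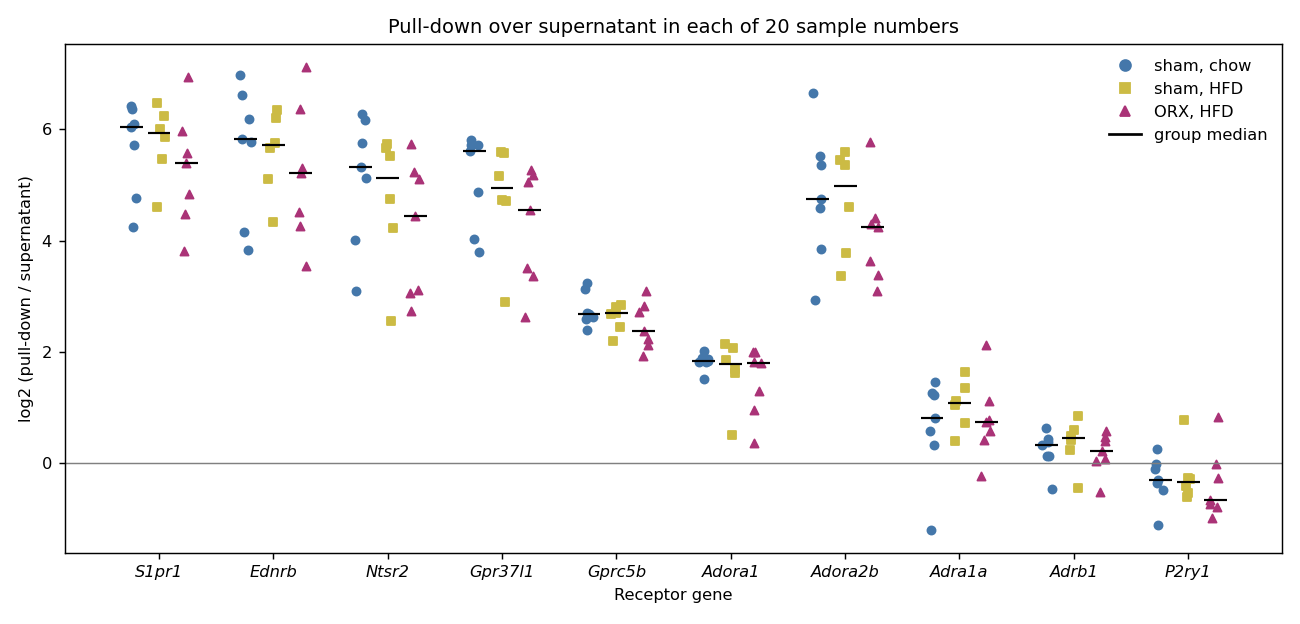
Log2 ratio of pull-down to supernatant for each receptor in each of 20 sample numbers, by treatment group, with bars at the group medians. All 20 values are above 0 for the 7 receptors on the left, 18 for Adra1a, 17 for Adrb1 and 3 for P2ry1.

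For some receptors the ratio of pull-down to supernatant varied widely between sample numbers. Ntsr2 went from 2.55 (number 1) to 6.27 (number 12) on the log2 scale, Gpr37l1 from 2.62 (number 22) to 5.80 (number 7), and Ednrb from 3.55 (number 22) to 7.12 (number 2). Spread within groups was taken as the SD of log2 CPM with a prior count of 2 added. In the supernatants it was 1.02 for Ntsr2, 0.93 for Ednrb, 0.89 for Gpr37l1, 0.83 for S1pr1 and 0.83 for Adora2b. These values lay above those of 95.8% to 98.1% of genes. In the pull-downs the same 5 had SDs of 0.16 to 0.28 and lay below the median gene's 0.30. Adora1 (0.37 in the pull-downs against 0.21 in the supernatants), Adrb1 (0.38 against 0.28) and P2ry1 (0.53 against 0.42) went the other way, with the larger spread in the pull-downs.

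Supernatant levels of these 5 receptors were set against the summed level of the 14 astrocyte markers, none of which is among the 10. That sum fell into 2 sets of libraries, 14 between 1609 and 2619 CPM and 6 between 3381 and 4798 CPM. The 6 were numbers 8 and 23 (sham, chow), 1 (sham, HFD) and 6, 11 and 22 (ORX, HFD). Their pull-downs were also the 6 highest in endothelial markers (620 to 1892 CPM against at most 556). The same 6 supernatants were the 6 highest for S1pr1 (57.8 to 96.9 CPM against at most 44.8 in the other 14), Ednrb (37.5 to 68.4 against at most 36.7), Ntsr2 (59.2 to 95.9 against at most 43.9) and Gpr37l1 (128 to 207 against at most 76.0). They were 5 of the 6 highest for Adora2b and Gprc5b, 4 for Adora1, 3 for Adrb1, 1 for Adra1a and 0 for P2ry1.

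Because the libraries fell into sets, relations were computed on log2 values within each set, 30 in all with those named in the next paragraph. Within the 14, Gpr37l1 followed the marker sum with r = 0.962 and rho = 0.956 (permutation test, p = 1e-05, the smallest 100000 permutations can give, adjusted 3e-04), and r = 0.956 without the 2 libraries farthest from the median. Ntsr2 followed it with r = 0.939 and rho = 0.921 (permutation test, p = 2e-05 for both, adjusted 3e-04), and r = 0.907 without 2. For S1pr1, Ednrb and Adora2b r was 0.56, 0.563 and 0.553 (permutation test, adjusted p = 0.14 each), and rho was 0.591, 0.464 and 0.582 (adjusted p = 0.139, 0.28 and 0.139). The values for Gprc5b were r = 0.397 and rho = 0.442, and those for Adora1 r = 0.23 and rho = 0.301 (permutation test, adjusted p from 0.292 to 0.642). Adra1a (r = -0.05), Adrb1 (r = 0.00037) and P2ry1 (r = 0.14) showed no relation that this number of libraries could detect. Within the 6, Ntsr2 and Gpr37l1 had r = 0.961 and 0.833 (exact permutation test, adjusted p = 0.0556 for both). S1pr1 (r = 0.599, rho = 0.143, and r = -0.669 without 2 libraries) and Ednrb (r = 0.0846, rho = -0.257, and r = -0.853 without 2) did not follow the sum within the 6. Within the 14, r without the 2 farthest libraries was 0.664 for S1pr1 and 0.608 for Ednrb. For these 2 receptors all of the 6 lay above all of the 14, though for Ednrb only just (37.5 against 36.7 CPM). The difference between the sets was not tested. A relation within the sets was neither shown nor excluded at these numbers of libraries.

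In the pull-downs the 12 neuron markers summed to 301 to 578 CPM in 17 libraries and to 715 to 866 CPM in numbers 8, 1 and 22, too few for a relation of their own. In these 3, Ntsr2 had a median of 592 CPM against 886 CPM in the 17, Adora1 202 against 411 CPM and P2ry1 7.39 against 13.8 CPM. Ednrb (830 against 1107 CPM) and Gpr37l1 (1536 against 1887 CPM) were lower as well. Adrb1 had 23.1 against 27.6 CPM and Adra1a 9.64 against 10.4 CPM, while S1pr1 (1837 against 1829 CPM), Adora2b (32.2 against 32.4 CPM) and Gprc5b (221 against 228 CPM) were at similar levels. Within the 17, no receptor's relation to the neuron marker sum passed adjustment. Ntsr2 came to r = -0.603 and Adrb1 to r = 0.608 (permutation test, adjusted p = 0.0556 for both), with rho of -0.461 and 0.574 (adjusted p = 0.214 and 0.107), and -0.399 and 0.551 without the 2 farthest libraries. The part of such shares of other material in the receptor levels was not tested.

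The 6 numbers hold the highest supernatants of S1pr1, Ednrb, Ntsr2 and Gpr37l1, so leaving them out has to raise those differences between the fractions, and the values are a description. They were 5.98 ± 0.16 for S1pr1, 5.92 ± 0.19 for Ednrb, 5.26 ± 0.17 for Ntsr2, 5.20 ± 0.12 for Gpr37l1, 4.84 ± 0.15 for Adora2b and 1.88 ± 0.07 for Adora1 on the log2 scale. The fold differences were 1.84 times those with all libraries for Ntsr2, 1.68 times for Gpr37l1, 1.61 times for Ednrb and 1.51 times for S1pr1. Gprc5b stood at 2.70 ± 0.10, Adra1a at 0.78 ± 0.16, Adrb1 at 0.32 ± 0.13 and P2ry1 at -0.18 ± 0.18, and 9 of the 10 were called, as with all libraries. This setting was chosen after the data were seen.

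**Figure D3:**
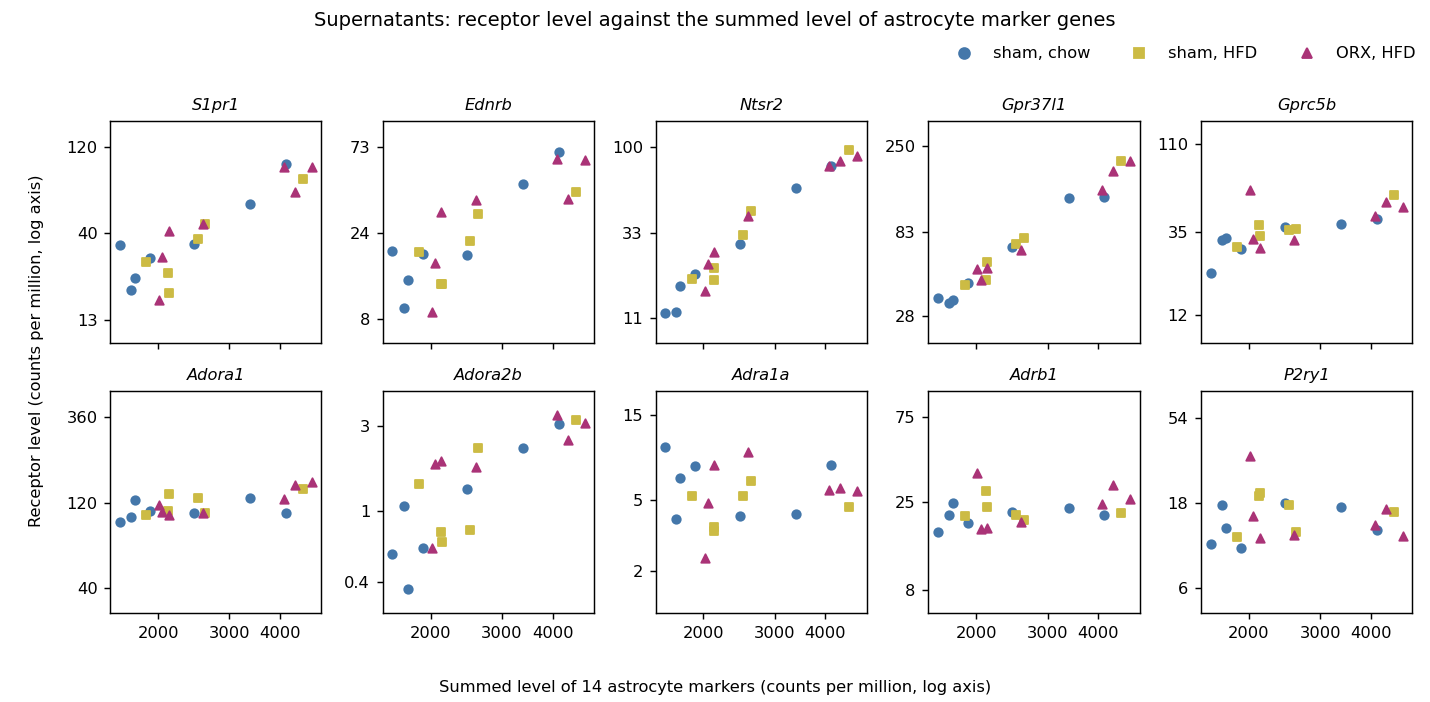
Level of each receptor in the 20 supernatants (CPM, log axis) against the summed level of 14 astrocyte markers (CPM, log axis), by treatment group. S1pr1, Ednrb, Ntsr2 and Gpr37l1 are highest in the 6 libraries at the right of each panel, and Adra1a, Adrb1 and P2ry1 are not.

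A high-fat diet in sham-operated mice changed none of the receptors past the threshold in either fraction. By edgeR, 0 of 10 passed in the pull-downs and 0 of 10 in the supernatants, 0 of 10 were under an unadjusted p of 0.05, and DESeq2 and limma voom called 0 as well. Over all genes 0% were called in either fraction, with 240 of 14059 and 206 of 14628 genes under an unadjusted 0.05. The receptors' log2 differences (HFD minus chow) lay between -0.15 (Ednrb) and 0.23 (P2ry1) in the pull-downs, with a median of 0.00 against -0.01 over all genes. Bounds of 2 SE around the diet difference were narrowest for Gprc5b (-0.10 to 0.19), Gpr37l1 (-0.20 to 0.18), Adora2b (-0.05 to 0.34) and S1pr1 (-0.21 to 0.23). Ntsr2 (-0.30 to 0.22) and Ednrb (-0.43 to 0.13) followed. Adora1, although abundant, was bounded only between -0.38 and 0.34, about as widely as the scarce Adra1a (-0.35 to 0.34). Adrb1 (-0.20 to 0.53) and P2ry1 (-0.30 to 0.77) had the widest bounds.

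In the supernatants the bounds were wider for 7 receptors, from -1.01 to 0.75 for S1pr1, -1.22 to 0.71 for Ednrb and -0.85 to 1.33 for Ntsr2, among others. They were narrower than in the pull-downs for Adora1 (-0.10 to 0.36), Adrb1 (-0.21 to 0.39) and P2ry1 (-0.26 to 0.64). The lowest value, for Adra1a, was -0.43 ± 0.27 (adjusted p = 0.904). Its chow supernatants had 3.95, 6.67 and 9.96 CPM (lowest, median, highest of 7) and its HFD supernatants 3.38, 4.91 and 6.39 CPM (of 6), so the groups overlapped.

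Orchiectomy, compared within HFD, again gave 0 of 10 receptors past the threshold in either fraction by edgeR, DESeq2 and limma voom, with 0% of all genes called by edgeR in either. In the pull-downs 1 receptor was under an unadjusted 0.05, as were 918 of 14059 genes. This was Gpr37l1, with 1536, 2004 and 2135 CPM in sham pull-downs on HFD and 1276, 1716 and 1887 CPM in ORX pull-downs. The ORX range reached lower and the groups overlapped. The log2 difference was -0.20 ± 0.09 (adjusted p = 0.741 by edgeR). Against sham on chow, at 1749, 1909 and 2091 CPM, it was -0.21 ± 0.09 (adjusted p = 0.419). The chow group serves in that comparison and in the diet comparison, so they are not independent.

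Ednrb gave the highest value under orchiectomy in the pull-downs, 0.22 ± 0.14 (adjusted p = 0.752), with 830, 1020.0 and 1107 CPM in sham and 722, 1199 and 1456 CPM in ORX mice on HFD. The ORX libraries spread to either side of the sham range. Without the 6 sample numbers that were high in astrocyte markers in the supernatant, the Ednrb value was 0.36 ± 0.09 (adjusted p = 0.437). That setting was chosen after the data were seen and takes out more ORX than sham numbers on HFD. Across the alternatives the Ednrb value lay between 0.18 and 0.36, the highest being this one, and none was called. S1pr1 stood at 0.01 ± 0.11 and Gprc5b at 0.00 ± 0.07, with 2 SE bounds of -0.21 to 0.23 and -0.15 to 0.14.

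For ORX on HFD against sham on chow, 0 of 10 receptors were called in either fraction, against 0.0142% of genes in the pull-downs (2 genes) and 0% in the supernatants. In the pull-downs 2 receptors, Gpr37l1 and Adora2b, were under an unadjusted 0.05, as were 1566 of 14059 genes. Adora2b was at 0.20 ± 0.09 there (adjusted p = 0.447 by edgeR), with 23.5, 28.5 and 36.8 CPM in chow and 29.1, 33.6 and 38.8 CPM in ORX libraries, which overlapped. Its HFD sham libraries, at 30.9, 32.8 and 34.5 CPM, had a median between those of the other groups. The 10 endothelial markers had a median difference of 1.08 in the pull-downs here, with 8 under an unadjusted 0.05, and of 0.76 under orchiectomy within HFD, with 2. Their summed level was 298 to 919 CPM in chow (median 406), 341 to 1120.2 CPM in HFD sham (median 444) and 442 to 1892 CPM in ORX pull-downs (median 556). In ORX, numbers 6, 11 and 22 had 1515, 1282 and 1892 CPM, and the others at most 556 CPM. The part of endothelial markers in the receptor values was not tested.

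In the supernatants 9 of 10 receptors had a positive difference under orchiectomy, as did 53.8% of all genes, and none passed the threshold. The receptors were measured in the same libraries, so their signs are not separate observations. Their median was 0.34 against 0.02 over all genes. The 14 astrocyte markers had a median of 0.34 in that comparison too, with Aldh1l1 and Gfap at 0.19 each, and 3 of 7 ORX supernatants against 1 of 6 sham supernatants on HFD were among the 6 high in astrocyte markers. Leaving out those 6 numbers, a setting chosen after the data were seen, takes out more ORX than sham supernatants on HFD. Lower differences therefore follow in part from the choice. The values of Ntsr2 (-0.02), Gpr37l1 (-0.11) and Adora1 (-0.09) were then negative. Those of S1pr1, Ednrb, Gprc5b, Adra1a, Adrb1 and Adora2b were positive under every alternative. The part of astrocyte material in these differences was not tested. The test of whether orchiectomy acted differently in the fractions gave negative values for all 10 receptors, where 46.3% of all genes were positive. The values ran from -0.59 (Gpr37l1) to -0.14 (P2ry1). Their median was -0.39 against -0.46 for the astrocyte markers and -0.02 over all genes. Without the 6 numbers Ednrb and Adora1 had positive values (0.10 and 0.05), and P2ry1 was positive without number 2 (0.07) or 18 (0.06). None passed (lowest adjusted p = 0.941), against 0.0064% of genes called. The corresponding test for diet called 0 of 10 receptors and 0% of genes, with values from -0.29 to 0.42.

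**Figure D4:**
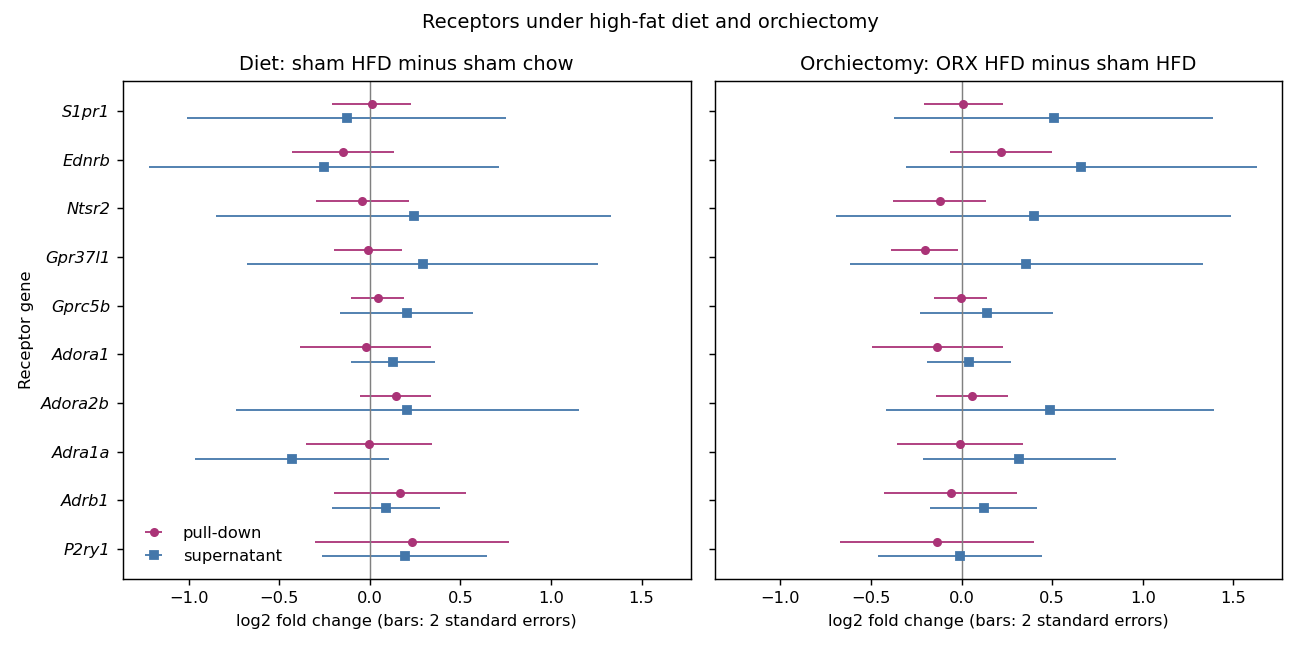
Log2 fold change of each receptor with diet (left) and orchiectomy (right) in pull-downs (circles) and supernatants (squares), with bars of 2 standard errors. All bars cross 0 except that of Gpr37l1 under orchiectomy in the pull-downs, and the supernatant bars are long for S1pr1, Ednrb, Ntsr2, Gpr37l1 and Adora2b.

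Each receptor was set beside its nearest gene among 10349, by the root mean square (RMS) difference of centred log2 CPM over 40 libraries. The libraries span both fractions, so a receptor with a large difference between them lies nearest a gene with a similar difference. Runners-up could be close, as Timp4 (0.183) and Mlc1 (0.185) were behind the nearest gene of Gpr37l1 (0.179). Shared regulation was not tested. S1pr1 lay nearest Slc1a2, the main glutamate transporter of astrocytes (RMS 0.25 on the log2 scale), which itself differed by 5.31 ± 0.20 between the fractions. Ntsr2 lay nearest Slc1a3, the other astrocyte glutamate transporter (RMS 0.18), Gpr37l1 nearest Sparc, a secreted matrix protein (0.18), and Ednrb nearest Sdc4, a cell surface proteoglycan (0.25). Gprc5b lay nearest Mcur1 (0.18), Adora1 nearest Pla2g16 (0.16) and Adora2b nearest Gstt3 (0.33). The nearest genes of the 3 receptors whose fractions overlapped were Kat6b for Adra1a (0.25), Gabbr1, a subunit of the GABA-B receptor, for Adrb1 (0.23) and Sod1 for P2ry1 (0.26). The RMS of the receptor's own centred values was 0.58 for Adra1a, 0.34 for Adrb1 and 0.48 for P2ry1, against 2.84 for S1pr1. A similar distance is thus a far larger part of the variation of these 3 than of S1pr1. Slc1a2 and Slc1a3 are also on the list of astrocyte markers.

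The other genes of the pathway are to be read against the 43.1% of all genes called higher and the 43.7% called lower in the pull-downs. Their lists, too, were chosen with earlier results of these data known. Of 25 other subtypes listed, 19 could be tested, of which 8 were higher in the pull-downs, 10 lower and 1 not called, close to those shares, with a median log2 difference of -1.36 against -0.01 over all genes. Adra2a, a Gi-coupled noradrenaline receptor, rose by 1.82 ± 0.07 to 73.2 ± 8.39 CPM (SD, n = 20), well above Adra1a and Adrb1. P2ry12 (-3.34 ± 0.13) and P2ry13 (-4.10 ± 0.17), ADP receptors known from microglia, fell, as did the neurotensin receptor Ntsr1 (-3.54 ± 0.14), a receptor of neurons. Among subtypes picked after their values were seen, Ednra rose by 2.41 ± 0.12 to 7.75 CPM, and S1pr5 (-3.17 ± 0.14) and Adra1b (-1.73 ± 0.11) fell. Adra1b was the more abundant of the pair with Adra1a in both fractions, at 16.4 CPM in the pull-downs and, in the supernatants, 54.2 CPM. Gpr37, the relative of Gpr37l1, differed by only 0.15 ± 0.06 (75.5 against 67.9 CPM).

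Of 24 tested genes that make or clear the ligands, 14 rose, 9 fell and 1 was not called (median 0.78), not far from the shares over all genes. Adk, the adenosine kinase that clears adenosine, rose by 2.51 ± 0.08 to 150 CPM. Ece1, which makes endothelin (2.00 ± 0.07), Sgpl1, which degrades sphingosine 1-phosphate (1.73 ± 0.08), and Maoa, which breaks down noradrenaline (1.71 ± 0.05), rose too.

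Downstream, 7 of 12 Gq and calcium genes were higher and 5 lower (median 0.18), a split near that of all genes. Itpr2, an inositol trisphosphate receptor, rose by 3.06 ± 0.07 and Plcb3, a phospholipase, by 3.58 ± 0.16, while the kinases Prkce (-2.12 ± 0.07) and Prkcd (-1.98 ± 0.15) fell. Of 27 cyclic AMP genes 8 rose, 17 fell and 2 were not called (median -1.20). Gnai2, a Gi subunit, rose by 2.01 ± 0.06 to 1240.3 CPM, and Gnaz (-2.16 ± 0.06), Gnao1 (-1.24 ± 0.04) and the cyclase Adcy5 (-2.17 ± 0.08) fell. Of 23 receptor kinases, arrestins and RGS proteins, which switch receptors or G proteins off, 7 rose and 16 fell (median -1.39), among them Rgs8 (-4.00 ± 0.10), Rgs17 (-3.88 ± 0.13) and Rgs10 (-3.81 ± 0.09), with Rgs12 higher by 2.52 ± 0.09.

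Of 21 other glial receptors 17 rose and 4 fell (median 1.33), with Fzd2 (3.96 ± 0.14), Gpr146 (3.94 ± 0.10), Lpar4 (3.58 ± 0.11) and Adgrg1 (2.97 ± 0.09) at the top. All 32 tested hypothalamic neuron receptors fell (median -3.40), among them Chrm3 (-4.19 ± 0.15), Sstr3 (-3.96 ± 0.13), Tacr1 (-3.60 ± 0.14) and Oprk1 (-3.50 ± 0.14). Adra1a, Adrb1 and P2ry1 had values between the medians of these lists. In no treatment comparison did any gene of these 7 lists pass the threshold in edgeR.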

How the data were processed

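Messenger RNA of microdissected hypothalami was made into 3' tag libraries (QuantSeq 3' mRNA-Seq, FWD), per the labels' protocols. Per the submitters' processing notes, Trim Galore 0.6.4, Salmon 1.9.0 and GRCm38 were used; no source used here names the annotation or the strand setting. The deposited matrix of raw counts lists an estimated count for each gene symbol and library. A second table deposited by the authors, named TPM, holds a signal that matches the counts times 1 factor per library for 25089 of 26783 shared symbols (within 0.01 counts). Of the 10 receptors, Ednrb and Adrb1 differed between the tables, by at most 0.568% and 1.47%. It served for 1 alternative, as log2 of the signal plus 1.

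After rounding the counts to whole numbers, tests were run with edgeR 4.0.16 in R 4.3.3 (TMM scaling, filterByExpr with a minimum count of 10, robust quasi-likelihood fit, Benjamini-Hochberg adjustment, threshold 0.05). All 40 libraries were fitted with 6 group means for the fractions and for the fraction interactions, and the 20 libraries of each fraction with 3 group means for diet and orchiectomy. SEs came from the F statistic. CPM values used TMM sizes of the 40-library fit. The scripts were tested on simulated data. Alternatives used DESeq2 1.42.0, limma 3.58.1 and other scalings, filters and sets of libraries. Replicate libraries of a group were compared, and none held identical values.

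The pull-down and the supernatant of 1 sample number were taken as fractions of 1 numbered sample, since the labels give a fraction and a sample number. By correlation the data gave little sign of it. Over 20 pairs the correlation of deviations from the group means lay between -0.07 and 0.15 (median 0.03). It was over 0.1 in 5 pairs, and 6 pull-downs correlated best with their own supernatant. By marker sums the fractions of a number did go together. The 6 numbers with supernatants highest in astrocyte markers were the 6 with pull-downs highest in endothelial markers. The block fit is therefore given beside the main fit where it changes a call.

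The members and gene lists were chosen with earlier results of these data known. Named genes were the 10 receptors, Aldh1l1, Gfap and Gm42418, the 4 tested genes of each list with the smallest p between the fractions, any list gene past the threshold in a treatment comparison, and the nearest gene to each receptor with a mean of at least 5 CPM. The genes of 1 further list are not reported here. Positions are from GENCODE M21 on GRCm38. Copies made by PCR cannot be counted out, so the spread between samples sets the errors.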

Additional observations from a re-analysis of the deposited data

Results flagged for a closer look

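Of 60 sets of values (10 receptors in 6 groups), 8 held a library that stood apart from the rest of its group, where chance alone gives about 1 in 20. The 8 came from 3 sample numbers. Receptors measured in the same library are not independent, so the 8 cannot be weighed against 1 in 20 as separate draws. Number 1 (sham, HFD) had the most. Its pull-down was low in Ntsr2 (561 CPM, the other 5 between 826 and 959) and in Adora1 (202 CPM, the others 378 to 475). Its supernatant was high in Ntsr2 (95.9 CPM, the others 18.0 to 43.9), Gpr37l1 (205 CPM, the others 41.8 to 76.0) and Gprc5b (56.5 CPM, the others 29.1 to 38.4). In this number, Gm42418 took 18.2% of the pull-down counts.

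The pull-down of number 12 (sham, chow) was high in S1pr1, at 2305 CPM against 1577 to 1891 in the other 6. It was low in Adra1a, at 4.36 CPM (48 counts) against 9.26 to 11.8. The supernatant of number 2 (ORX, HFD) was high in P2ry1, at 32.9 CPM (372 counts) against 11.5 to 16.6. None of the 20 tests of whether a receptor's diet or orchiectomy effect differed between the fractions passed the threshold.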

How the results depend on the processing

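Across 11 alternatives and the leaving out of each sample number, 2670 values of the 10 receptors kept their side of the threshold in 2659 cases. The sign changed in 150, all of them values past no threshold in diet, orchiectomy or interaction comparisons, and in none of the 300 values between the fractions. The 11 exceptions were the calls of Adrb1 (4) and P2ry1 (7) between the fractions, with values of 0.20, 0.20, 0.20 and 0.15 for Adrb1 and -0.36 to -0.29 for P2ry1. None reversed a called direction. Receptors past the threshold numbered 9 to 10 between the fractions when each number was left out, and 0 in every treatment comparison and interaction under every alternative.

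Over all genes, the counts past the threshold moved as follows, and the cause was not tested. Under orchiectomy in the pull-down they went from 0 to 11 with DESeq2, 1 with total counts, 4 without the 4 pull-downs rich in Gm42418, 6 with all 40 libraries in the fit and 2 without the 6 numbers high in astrocyte markers. In the supernatant they went from 0 to 3 with DESeq2 and 1 with all 40 libraries. For ORX on HFD against chow they went in the pull-down from 2 to 12 with DESeq2, 1 with limma voom and 6 with all 40 libraries, and in the supernatant from 0 to 1 with DESeq2 and 1 with all 40 libraries. The diet interaction went from 0 to 4 with DESeq2. The orchiectomy interaction went from 1 to 6 with DESeq2 and to 0 with limma voom, with the second table, without the pull-downs rich in Gm42418 and with the replicate block. Leaving out 1 number at a time gave 0 to 5 genes for orchiectomy in the pull-down, 2 to 4 and 0 to 2 for ORX on HFD against chow in the pull-down and the supernatant, 0 to 2 for the orchiectomy interaction, and 13399 to 13633 between the fractions. Among the receptors, the replicate block changed the call of P2ry1 only, and between the fractions the genes called went from 13561 to 13485. Leaving out pull-downs rich in Gm42418 changes no supernatant comparison, so it gave no value there.

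Depth limits Adora2b in the supernatants, where the lowest library had 4 counts.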
